A study of Homo sapiens with 6 samples.

Results

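NGFR, SORT1, the neurotrophins BDNF and NTF3 and the receptor kinases NTRK2 and NTRK3 were followed in MIA PaCa-2, a long-established line of human pancreatic carcinoma cells. These 6 genes were taken by symbol from a table of 35993 genes, and all 6 had a row in it. RNA was sequenced from 3 untreated libraries and from 3 libraries of cells given 4 µM rhCYGB for 48 h. rhCYGB is recombinant human cytoglobin, a histidine-tagged heme protein that the authors produced in E. coli. Both groups came from the same line, plated and then moved to medium with 1% FBS before treatment. The labels name no vehicle and no second protein for the untreated wells, so the added protein and the buffer it came in cannot be told apart from each other. The members were chosen by their read counts in rhCYGB against untreated libraries, with that difference in view. Their own values, and whether they pass the limits set below, are therefore a description with no test. Tests are given only for other genes of the pathway and for cell markers.

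Neurotrophins are small secreted proteins that control survival and growth of neurons. They are made as proneurotrophins and cut to mature factors. Each mature factor prefers a Trk receptor tyrosine kinase. BDNF and NTF4 bind NTRK2, and NTF3 binds mainly NTRK3. NGFR, also called p75NTR, belongs to the TNF receptor superfamily, has an intracellular death domain and binds all neurotrophins. It can help Trk receptors or act without them. SORT1 encodes sortilin, a receptor with a VPS10 domain that sorts proteins between the Golgi and endosomes and can form a receptor for proneurotrophins together with NGFR. In the pancreas this system is known mainly from nerves, stellate cells and tumors that grow along nerves.

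NGFR had reads in every library and was far higher after rhCYGB, while BDNF, NTF3, NTRK2 and NTRK3 were at or near 0 counts in both groups. SORT1 was lower after rhCYGB in every library. A gene was called when its Benjamini-Hochberg adjusted p from edgeR's quasi-likelihood test was under 0.05 and its fold change was 2 or more. By this rule 2 of the 6 members were called, 1 higher and 1 lower, and these were the only 2 tested. Of all 14728 genes tested, 27.1% were called (12.4% called higher and 14.7% called lower). By the adjusted p alone, 77.6% of all genes passed. Nothing is read from the members' count, because the same contrast chose them. Of the other members, BDNF had too few counts to be tested, and NTF3, NTRK2 and NTRK3 had 0 counts in all 6 libraries.

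NGFR (gene number 4804) had 114, 165 and 170 read counts in untreated libraries 1, 2 and 3. The rhCYGB libraries held 11694, 9928 and 11243 counts. The lowest rhCYGB library thus lay far above the highest untreated library, and the groups did not overlap, as was true of the CPM of 79.5% of the genes tested. With counts divided by library sizes that were scaled by TMM factors, and written as CPM, NGFR was at 3.64 ± 0.556 (mean ± SD, n = 3) in untreated and 306 ± 8.24 CPM in rhCYGB-treated cells. This was an 84.2-fold higher mean, or a log2 fold change of 6.39. Of all genes tested, it had the 19th highest log2 fold change. Leaving out any 1 library gave log2 fold changes between 6.29 and 6.49. As these are bulk libraries, more cells with NGFR and more NGFR RNA per cell cannot be told apart.

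On the per-length scale of FPKM, NGFR moved from the lower part of the detected genes to near the top. It was at 0.830, 1.00 and 1.15 FPKM in the untreated libraries, where between 63.0% and 66.8% of the genes with counts were at the same level or above. In the rhCYGB libraries it was at 77.2, 71.1 and 75.8 FPKM, and between 4.47% and 4.67% of the genes with counts were at its level or above. The table holds 1 transcript of NGFR, NM_002507, which is 3408 bases long and was placed on chromosome 17 from 47572655 to 47592370. This table does not name its build. Its positions reach 249231298 on chromosome 1, beyond the end of the last gene listed for GRCh38.p14, 248937099. MIR6165, a microRNA gene listed inside NGFR, had 0 counts in each untreated library and 16, 11 and 15 counts in the rhCYGB libraries. Reads from a host gene and from a microRNA gene inside it cannot be told apart in these counts. The other gene listed over NGFR, LOC100288866, had 0 counts in every library.

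**Figure D1:**
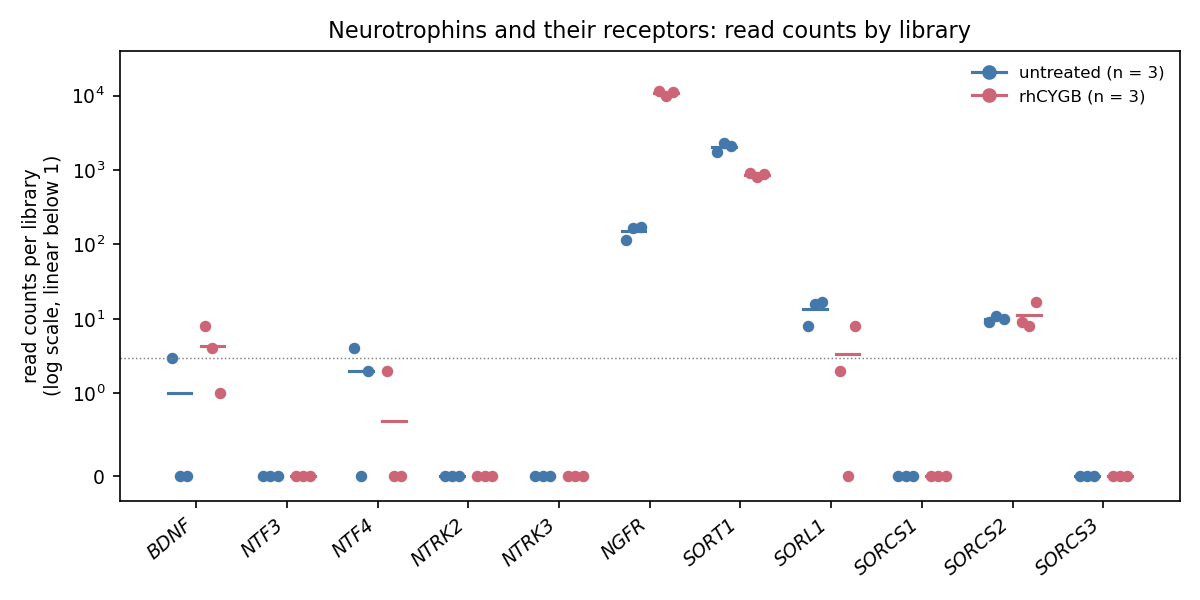
Read counts of the neurotrophins BDNF, NTF3 and NTF4, the Trk receptors NTRK2 and NTRK3, NGFR and the VPS10-domain receptors in each library, on a log axis that is linear below 1. Points are libraries, short bars are group means, and the dotted line marks 3 counts. NGFR and SORT1 stand far above the dotted line in both groups and move in opposite directions, while none of the plotted neurotrophins and Trk receptors exceeds 8 counts.

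Among the ligands, BDNF, the factor for NTRK2, was at the edge of detection. It had 3, 0 and 0 counts in the untreated libraries and 8, 4 and 1 counts in the rhCYGB libraries. The groups overlapped in CPM. Summed over libraries these were 3 and 13 counts, a ratio of 4.96 with an exact Clopper-Pearson 95% interval from 1.36 to 27.2 that covers counting error only and leaves out the spread between libraries. All BDNF counts in the rhCYGB libraries were assigned to 1 of its 17 listed transcripts, NM_170735, which lies on chromosome 11 from 27676440 to 27681196. The antisense gene BDNF-AS spans this stretch and had 2, 16 and 11 counts in untreated and 6, 7 and 6 counts in rhCYGB libraries. Whether the counting used strand is not stated in the sources used here, so the few BDNF counts and those of BDNF-AS cannot be told apart.

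NTF3 had 0 counts in all 6 libraries. A count of 0 allows up to 3 counts, which is between 0.0669 and 0.0902 CPM in a single library, and 0.0244 CPM over the untreated and 0.0280 CPM over the rhCYGB libraries together. NTF4, which shares NTRK2 with BDNF, had 4, 0 and 2 counts in untreated and 2, 0 and 0 counts in rhCYGB libraries. Any difference in NTF3 or NTF4 was not detectable at this depth.

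NTRK2 and NTRK3, the receptors for BDNF and NTF3, had 0 counts in every library over 27 and 6 listed transcripts, so neither the full-length nor the truncated forms were detected in either group.

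SORT1 (gene number 6272) had 1729, 2322 and 2071 counts in untreated and 902, 807 and 877 counts in rhCYGB libraries. Every rhCYGB library was below every untreated library. Scaled to depth, SORT1 was at 49.7 ± 2.87 CPM in untreated and 24.1 ± 0.277 CPM in rhCYGB-treated cells (mean ± SD, n = 3). It was thus 2.06-fold lower, and its log2 fold change was -1.04. That is close to the 2-fold limit. On log2(FPKM + 1), where the pseudocount shrinks changes, it was -0.98, just inside that limit, and it was -1.21 when total counts alone set the scale. The latter scaling also moved the median of all genes by -0.16, and relative to that median SORT1 stayed at -1.04.

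SORT1 has 2 listed transcripts that begin at different starts on chromosome 1. NM_002959 (109852197 to 109940540 in the deposited table, 6990 bases) took 96.9%, 98.2% and 96.8% of the gene's counts in untreated libraries and 97.0%, 95.9% and 90.2% in rhCYGB libraries. The other transcript, NM_001205228 (109852187 to 109935979), had 54, 43 and 67 counts in untreated and 27, 33 and 86 counts in rhCYGB libraries. The third rhCYGB library was the highest for this transcript and the lowest for the main transcript's share, and the groups overlapped in the counts of the minor transcript. For NM_002959 itself the level was 48.3 ± 3.03 CPM in untreated and 22.8 ± 1.14 CPM in rhCYGB libraries, so the lower level of the gene lay in its main transcript. Counts per transcript are StringTie's division of reads between overlapping models.
The 250 bases before each RefSeq start are shown because nearly all SORT1 counts came from a single start. They are from RefSeq on GRCh38.p14, minus strand, read 5′ to 3′, and were matched to the transcripts by their order along the gene. These windows lie further apart than the deposited starts, 109940540 and 109935979. With the main starts aligned, most of the minor window lies after the deposited minor start. Its bases are therefore mostly not those before the start that was counted. Capitals mark matches, on either strand, to CCAAT (the CCAAT box), to GGGCGG (the GC box) or to TATAAA (the TATA box).
SORT1 start of the main transcript, chr1:109397919-109398168: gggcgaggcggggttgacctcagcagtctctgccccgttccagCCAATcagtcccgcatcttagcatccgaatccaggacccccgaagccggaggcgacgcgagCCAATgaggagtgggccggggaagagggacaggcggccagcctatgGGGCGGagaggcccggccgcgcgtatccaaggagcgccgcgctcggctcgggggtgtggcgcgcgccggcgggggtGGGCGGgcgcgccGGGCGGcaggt
SORT1 start of the minor transcript, chr1:109393136-109393385: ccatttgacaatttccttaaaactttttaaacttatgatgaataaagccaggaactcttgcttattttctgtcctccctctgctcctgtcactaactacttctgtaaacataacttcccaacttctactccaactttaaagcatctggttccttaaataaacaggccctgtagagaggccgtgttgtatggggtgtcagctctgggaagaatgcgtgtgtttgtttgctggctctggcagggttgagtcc
The window of the main start had 74.0% G and C, 32 CG dinucleotides, 2 CCAAT and 3 GGGCGG matches. The window listed for the minor start had 42.8% G and C, 2 CG dinucleotides and 0 matches to the 3 motifs. Over 35116 windows of the same length, the medians were 58.0% G and C and 11.0 CG dinucleotides. CCAAT was present in 32.0% of them, GGGCGG in 42.6% and TATAAA in 10.7%. Windows were listed for 5 of the 6 members, all but NGFR.

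The other VPS10-domain receptors were at few or 0 counts, and of these only SORCS2 could be tested. SORCS1 and SORCS3 had 0 counts in all libraries. SORL1, which like sortilin sorts proteins between the Golgi and endosomes, had 8, 16 and 17 counts in untreated and 2, 0 and 8 counts in rhCYGB libraries, a summed ratio of 0.279 (exact 95% interval 0.125 to 0.567, counting error only). It was removed by the filter on low counts, and with the filter off its log2 fold change was -1.81 with an adjusted p of 0.0754 from edgeR's test. Its call rests on single libraries, as SORL1 passed both limits without the first untreated library (-2.03, adjusted p = 0.0346) or without the third rhCYGB library (-3.41, adjusted p = 0.00512). SORCS2, another proneurotrophin co-receptor of NGFR, had 9, 11 and 10 counts in untreated and 9, 8 and 17 in rhCYGB libraries. Its log2 fold change was 0.37 (edgeR, adjusted p = 0.486) with an error of 0.470, and it was -0.01 without the third rhCYGB library.

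The order of the members changed between the groups. In untreated cells SORT1 had the highest level per length, 6.62 ± 0.410 FPKM (mean ± SD, n = 3), followed by NGFR at 0.994 ± 0.160 FPKM. In rhCYGB-treated cells NGFR was first with 74.7 ± 3.23 FPKM and SORT1 second with 2.87 ± 0.0454 FPKM. NGFR and SORT1 did not overlap within either group. BDNF followed in both groups, at 0.00418 ± 0.00724 and 0.0177 ± 0.0164 FPKM, and its range reached 0 in the untreated libraries, where NTF3, NTRK2 and NTRK3 are also listed.

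Because NGFR carries a death domain, its level was set beside those of the other death-domain receptors, which take part in apoptosis and NF-kB signaling. In untreated cells NGFR was below the 6 detected receptors, of which TNFRSF21 was the lowest at 2.45 ± 0.125 FPKM. In rhCYGB-treated cells TNFRSF10B, the TRAIL receptor DR5, was at 102 ± 3.26 FPKM and TNFRSF1A, the main TNF receptor, at 76.5 ± 6.34 FPKM. The range of NGFR, 71.1 to 77.2 FPKM, overlapped that of TNFRSF1A, 69.4 to 81.6 FPKM, and lay below that of TNFRSF10B. Of these receptors TNFRSF10B rose with a log2 fold change of 2.11 (adjusted p = 6.18e-15) and TNFRSF21 with 1.36 (adjusted p = 1.34e-10; edgeR's quasi-likelihood test for both), so 2 of 6 tested were called, both higher, against 1 by limma on log2(FPKM + 1). Of all genes tested, 12.4% were called higher and 27.1% in either direction. The list had a median log2 fold change of 0.43, against 0.0 over all genes tested. EDAR had 0 counts in all libraries. TNFRSF10B overlaps RHOBTB2, whose counts went from 3035 to 1158 over the libraries of each group, against 13626 and 51572 for TNFRSF10B.

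**Figure D2:**
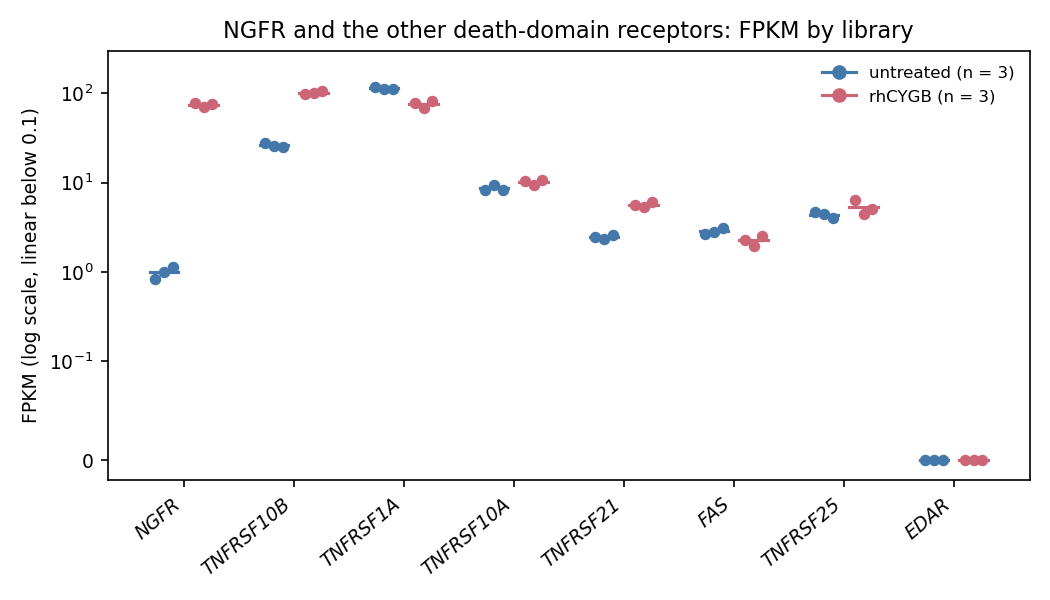
FPKM of NGFR and of the other death-domain receptors in each library, on a log axis that is linear below 0.1. Points are libraries and short bars are group means. NGFR is the lowest detected receptor in untreated cells and overlaps TNFRSF1A in rhCYGB-treated cells.

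The wider pathway outside the members was described with 8 lists holding 118 genes, of which 117 were in the table. Of these, 17 had 0 counts in every library, 10 more were removed by the filter and 90 were tested. At the rule above, 20 were called higher and 10 lower, or 33.3% of those tested, against 27.1% of all genes. The 27.1%, made up of 12.4% higher and 14.7% lower, is also the background for each of the 8 lists. The median log2 fold change of the 90 genes was 0.34. On log2(FPKM + 1), limma called 11 of them higher and 5 lower.

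The enzymes that cut proneurotrophins and NGFR itself moved in both directions. Of 19 listed, 11 were tested, 1 was called higher and 0 lower, and by the adjusted p alone 4 were higher and 5 lower, with a list median of 0.05. ADAM17, the metalloprotease that sheds the outer part of NGFR, was at 57.7 ± 1.18 CPM in untreated and 122 ± 3.80 CPM in rhCYGB libraries. Its rise of 1.08 on the log2 scale (edgeR, adjusted p = 2.97e-12) had an error of 0.0419. With total counts, upper-quartile factors or log2 FPKM its log2 fold change was under 1, between 0.86 and 0.94. ADAM17 overlaps IAH1 in the deposited table. ADAM10, another metalloprotease of the list, was named after its value was seen. It fell from 265.5 ± 4.19 to 164.9 ± 7.31 CPM (log2 fold change -0.69, adjusted p = 3.15e-10 by edgeR's test) and did not reach 2-fold. The proprotein convertases, which release mature neurotrophins, were chosen after their values were seen. FURIN fell by 0.47 on the log2 scale (adjusted p = 7.53e-07) and PCSK7 fell by 0.86 (adjusted p = 1.36e-09; edgeR's test for both), and neither reached 2-fold on this scale. With total counts PCSK7 was at -1.02 and passed the 2-fold limit, as it did on log2(FPKM + 0.1). PLAT, which encodes tissue plasminogen activator, was filtered out for low counts but was called lower without the third untreated or the first rhCYGB library. PCSK1, PCSK2 and PCSK5 had 0 counts throughout.

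Among 21 listed partners of NGFR, 17 were tested. Of these, 5 were called higher and 4 lower, with a median log2 fold change of 0.09. TRAF4, an adaptor that binds the receptor's intracellular part, rose from 39.4 ± 3.30 to 149 ± 4.01 CPM (log2 fold change 1.92, adjusted p = 9.70e-14). ZNF274, a zinc finger repressor, rose from 30.4 ± 1.10 to 114 ± 2.62 CPM (log2 fold change 1.90, adjusted p = 1.69e-14). RIPK2, a kinase that links the death domain to NF-kB, rose from 9.73 ± 0.0794 to 29.1 ± 1.13 CPM (log2 fold change 1.58, adjusted p = 6.37e-12). In the other direction, MYD88, an adaptor shared with Toll-like receptors, fell from 13.4 ± 0.600 to 2.34 ± 0.623 CPM (log2 fold change -2.51, adjusted p = 5.40e-10). MAGEH1 and MAGED1, MAGE proteins that bind NGFR, had log2 fold changes of -1.70 (adjusted p = 4.04e-07) and -1.68 (adjusted p = 9.32e-14). All p-values here are from edgeR's quasi-likelihood test.
Of the genes chosen after their values were seen, RTN4R, the Nogo receptor that uses NGFR as its signaling partner, rose from 18.2 ± 1.98 to 40.6 ± 1.98 CPM (log2 fold change 1.16, adjusted p = 1.01e-09). LINGO1, another part of that complex, was low and fell from 3.09 ± 0.462 to 1.88 ± 0.565 CPM (log2 fold change -0.71, adjusted p = 0.00872). BEX3, which binds the death domain, fell from 179 ± 5.88 to 89.1 ± 4.14 CPM (log2 fold change -1.01, adjusted p = 9.82e-12; edgeR's test for all 3). BEX3 was just under 2-fold without the third untreated (-0.98), the third rhCYGB (-0.97) or, by the smallest margin, the first rhCYGB library, and each of these left 3 partners called lower. RTN4R was under 2-fold with total counts and on log2(FPKM + 0.1), at 0.99 in both, and at 0.92 on log2(FPKM + 1), which left 4 called higher.

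Adaptors of activated Trk receptors, which also serve other receptor kinases, were mostly detected. Of 27 listed, 25 were tested, 4 were called higher and 4 lower, and the median log2 fold change was 0.21. GAB2, a docking protein of the PI3 kinase pathway, showed the largest rise of the list, from 3.23 ± 0.250 to 37.9 ± 3.53 CPM (log2 fold change 3.55, adjusted p = 3.67e-14). SHC2, an adaptor found mainly in neurons, rose from 4.45 ± 0.422 to 23.1 ± 0.573 CPM (log2 fold change 2.37, adjusted p = 2.15e-12). SH2B2 had a log2 fold change of 1.26 (adjusted p = 5.25e-07). PIK3R1, the regulatory subunit p85-alpha of PI3 kinase, fell from 10.7 ± 0.756 to 1.77 ± 0.196 CPM (log2 fold change -2.60, adjusted p = 7.13e-11). TIAM1, an activator of Rac, and SH2B1, a scaffold of Trk receptors, had log2 fold changes of -1.10 (adjusted p = 8.29e-07) and -1.08 (adjusted p = 1.41e-09), all by edgeR's test. On log2(FPKM + 1), limma called 2 of the list higher and 1 lower.

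**Figure D3:**
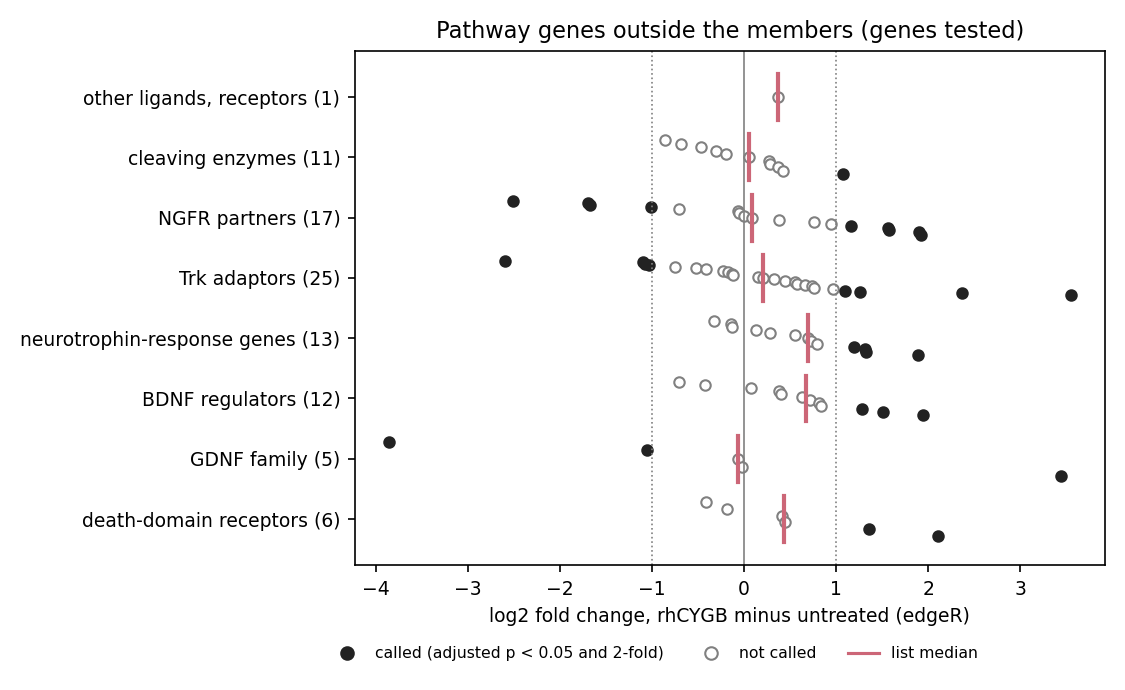
The log2 fold change between rhCYGB and untreated libraries of each tested gene in the 8 lists, with the number tested in brackets. Filled points were called, open points were not, red lines are list medians, and dotted lines mark a 2-fold change. Called genes lie on both sides in the lists of NGFR partners, Trk adaptors and the GDNF family.

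Genes that neurotrophins raise in neuronal cells had 13 tested members of 15, of which 4 were called higher and 0 lower, with a median log2 fold change of 0.69. That is 30.8% called higher, against 12.4% called higher and 27.1% called in either direction among all genes tested. The list is small and was not tested as a set. Limma called 1 of the listed genes higher on log2(FPKM + 1) and 2 on log2(FPKM + 0.1). ARC, a synaptic immediate early gene, went from 22, 23 and 13 to 51, 65 and 72 counts (log2 fold change 1.89, adjusted p = 4.02e-05). NR4A1, an early nuclear receptor gene, went from 50, 52 and 37 to 95, 79 and 130 counts (log2 fold change 1.31, adjusted p = 1.09e-04). EGR2 was called on few counts, 12, 15 and 3 against 21, 26 and 19 (log2 fold change 1.33, adjusted p = 0.0192), and its log2 fold change was 0.91 without the third untreated library (adjusted p = 0.0839). The other called gene, FOSL1, had far more counts and rose from 74.6 ± 1.6 to 171.5 ± 3.9 CPM (adjusted p = 3.71e-13). FOS, another early gene, had a log2 fold change of -0.13 (adjusted p = 0.522; edgeR's test for all). FOSL1 and FOS were named after their values were seen.

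The list of factors known to act on BDNF promoters had 3 of 12 tested genes called, all higher, and a median log2 fold change of 0.68. That is 25.0% called higher, against 12.4% called higher and 27.1% called in either direction among all genes tested. The list is small and was not tested as a set. ATF4, the transcription factor of the integrated stress response, rose from 209 ± 16.8 to 809 ± 31.4 CPM (log2 fold change 1.95, adjusted p = 5.39e-14). BHLHE40, a repressor under clock control, rose with a log2 fold change of 1.51 (adjusted p = 3.79e-13). CRTC2, a co-activator of CREB, rose with 1.28 (adjusted p = 3.38e-12; edgeR's test for all). NPAS4, an activity-dependent factor of neurons, had 0 counts.

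The GDNF family, a second group of neurotrophic factors that signal through RET with a GFRA co-receptor, was included for comparison. Its ligands, like BDNF and NTF3, were at low levels. GDNF had 4, 5 and 6 counts in untreated and 50, 48 and 47 counts in rhCYGB libraries, or 0.122 ± 0.0218 and 1.36 ± 0.0843 CPM. It rose by 3.44 on the log2 scale (edgeR, adjusted p = 4.70e-07), with an error of 0.367. PSPN, the ligand persephin, had 26, 19 and 26 counts in untreated and 0, 0 and 4 counts in rhCYGB libraries (log2 fold change -3.86, adjusted p = 2.05e-04), and it overlaps the far more abundant ALKBH7. ARTN, the ligand artemin, went from 38, 39 and 44 to 15, 12 and 24 counts (log2 fold change -1.06, adjusted p = 0.00928). Leaving out the third untreated, the first rhCYGB or the second rhCYGB library put ARTN just under 2-fold, at -0.99, -0.94 and -0.90. RET had a log2 fold change of -0.02 (adjusted p = 0.920; edgeR's test for all) and between 127 and 181 counts in every library. GFRA1, the co-receptor of GDNF, and GFRA4, that of persephin, had 0 counts in every library, and GFRA3, that of artemin, had between 5 and 8. In all, 3 of 5 tested genes of this family were called, 1 higher and 2 lower, with a median of -0.07. On log2(FPKM + 1) limma called 0 of them at 2-fold, with GDNF at 0.31, PSPN at -0.78 and ARTN at -0.31, and with at least 10 counts required in every library 0 were called higher and 1 lower.

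**Figure D4:**
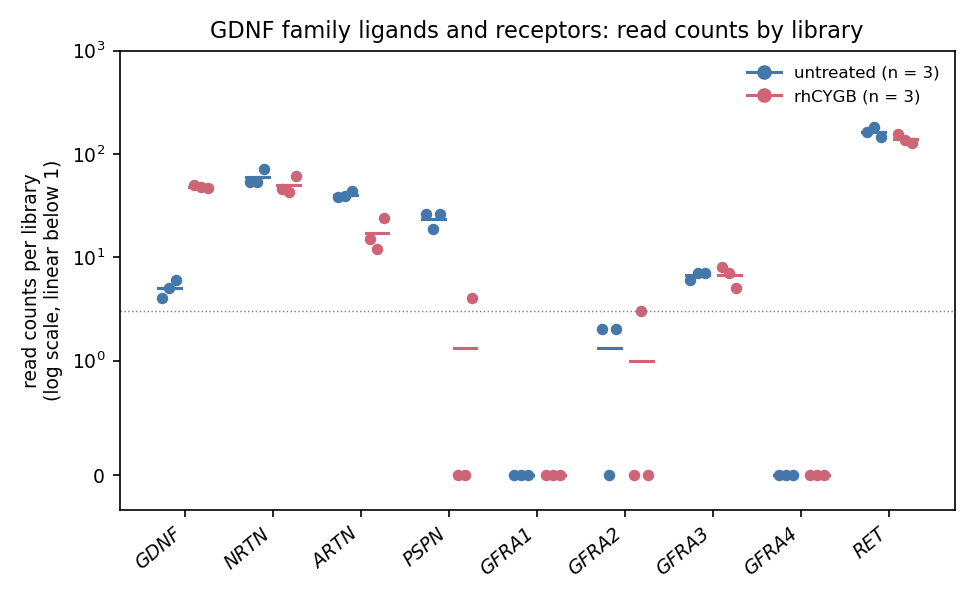
Read counts of GDNF family ligands and their receptors in each library, on a log axis that is linear below 1. Points are libraries, short bars are group means, and the dotted line marks 3 counts. GDNF is higher and PSPN and ARTN are lower after rhCYGB, while GFRA1 and GFRA4 are at 0 in all 6 libraries.

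The genes whose values over the 6 libraries were most like those of NGFR were found by the root mean square difference of log2 CPM, after subtracting each gene's untreated mean, over 14727 other genes. They were CHST1 (0.347), NUPR1 (0.368), GADD45G (0.423), KCP (0.484) and GDF15 (0.618). CHST1, a keratan sulfate sulfotransferase, went from 24, 21 and 25 to 1523, 1247 and 1481 counts. NUPR1, a stress-induced chromatin protein, went from 66, 43 and 55 to 5248, 4453 and 4573 counts. KCP went from only 0, 4 and 0 to 221, 203 and 215 counts, and its edgeR log2 fold change was 7.38 (standard error 0.404). The prior count of 2 in log2 CPM shrinks the change of so low a gene in this measure. GDF15, a stress cytokine, reached a level near that of NGFR, 267 ± 16.6 CPM against 306 ± 8.24 CPM. The points share the 6 libraries and 1 difference between groups, so the measure reads mainly the size of that difference. For SORT1 the nearest were APEH, BCKDHB, RANBP1, CDCA8 and PSMD10, with differences between 0.0253 and 0.0411, and their log2 fold changes lay between -1.06 and -1.03.

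**Figure D5:**
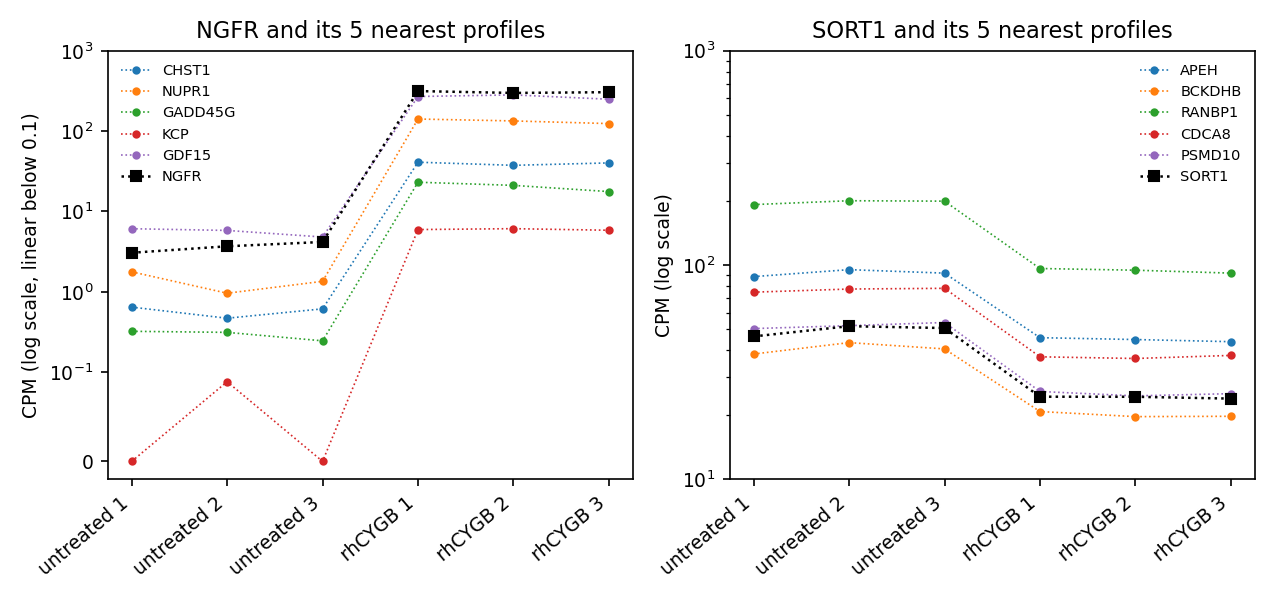
CPM of NGFR (left) and SORT1 (right) with the 5 genes of most similar values, in each of the 6 libraries, on log axes (left, linear below 0.1). Dotted lines join the points of a gene and carry no order among replicates. All genes on the left are low in untreated and high in rhCYGB libraries, and all on the right are lower in rhCYGB libraries.

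Read counts on genes ran from 34838399 to 42271299 per library, and no library stood apart from its group, with a lowest correlation of 0.987 between log2 CPM values across genes within a group against a highest of 0.929 between groups. The labels do not say whether libraries of a group came from separate cultures, so p-values measure only the spread between these libraries. The line had the keratins KRT8, KRT18 and KRT19 and the mesenchymal gene VIM, while the epithelial genes EPCAM and CDH1 had 0 and at most 2 counts. VIM rose from 8013 ± 90.4 to 11740 ± 274 CPM (log2 fold change 0.55, adjusted p = 1.12e-11) and ZEB1, a mesenchymal transcription factor, was called higher (log2 fold change 1.18, adjusted p = 8.80e-12; edgeR's test for both). The other mesenchymal marker, CDH2, had 0 counts in every library. The summed level of the 3 mesenchymal markers was 7955 to 8134 CPM in untreated and 11630 to 12140 CPM in rhCYGB libraries, nearly all of it VIM. The summed level of 7 epithelial markers was 3864 to 4094 CPM in untreated and 2968 to 3174 CPM in rhCYGB libraries. Most of this difference lay in KRT8, which fell from 2085 ± 77.8 to 1190 ± 41.1 CPM (log2 fold change -0.81, adjusted p = 1.47e-11). MUC1 was called lower (-1.40, adjusted p = 1.09e-09), and KRT19 was at -0.61 (adjusted p = 3.97e-09). KRT18 was at 0.04 (adjusted p = 0.315) and KRT7 at 0.49 (adjusted p = 0.176, edgeR's test for all). Schwann cell and glia markers, the cells best known for NGFR, were at or near 0. SOX10, S100B and CDH19 had 0 counts, and the summed level of all 6 was at most 0.0268 CPM in untreated and 0.0902 CPM in rhCYGB libraries. Of 7 neuron markers 4 had 0 counts and SYT1 made up nearly all of the summed level, 8.52 to 10.5 CPM in untreated and 9.82 to 10.7 CPM in rhCYGB libraries. Of 6 stellate cell and fibroblast markers, 0 were called higher and 2 lower, and of them COL1A1, DES and PDGFRB had at most 10 counts in any library. The summed level was 823 to 874 CPM in untreated and 311 to 338 CPM in rhCYGB libraries, most of it RGS5. Of 3 endothelial markers PECAM1 had 0 counts and CDH5 fell with a log2 fold change of -3.26, and of 3 immune markers PTPRC and CD3E had 0 counts and CD68 had a log2 fold change of 0.99. The summed level of the endothelial markers was 109 to 122 CPM in untreated and 10.5 to 13.7 CPM in rhCYGB libraries. The summed level of the immune markers was 34.2 to 37.98 CPM in untreated and 70.4 to 72.4 CPM in rhCYGB libraries. The part of the epithelial, mesenchymal, stellate, endothelial and immune markers in the members' differences was not tested.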

How the data were processed

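Libraries were made from total RNA with a stranded mRNA kit and sequenced from both ends. The submitters' processing notes name FastQC 0.11.7, HISAT2 2.1.0 and StringTie 2.1.3b, and list the mouse build mm10, although the tables hold human genes. The authors deposited read counts per gene and per transcript, which are whole numbers without normalization, and FPKM values, which the authors scaled to transcript length and mapped reads. The 12 TPM columns were not used.

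Groups came from the sample titles. Counts were filtered with filterByExpr, scaled with TMM factors and tested with edgeR 4.0.16 (quasi-likelihood, R 4.3.3), with Benjamini-Hochberg adjustment over 14728 genes. Genes were called at an adjusted p below 0.05 together with at least a 2-fold difference. Errors of log2 fold changes were back-calculated, as the size of the change divided by the square root of edgeR's F statistic. CPM uses TMM-scaled sizes, and log2 CPM for profiles adds a prior count of 2. Intervals and floors of 3 counts cover counting error only. The members and lists were chosen with earlier results of these data known.

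Named genes were the members, the other ligands and receptors, up to 3 called genes per list and direction with a mean of at least 20 counts, the 5 nearest profiles, and genes that overlap a member. Others are marked where named, except the markers. Some listed genes are not reported here. Promoters came from RefSeq. The fits were first tested on simulated data. Alternatives were other scalings, filters, DESeq2 1.42.0, limma 3.58.1 on log2 FPKM, transcript sums, a replicate block and leaving out each library.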

Additional observations from a re-analysis of the deposited data

How the results depend on the processing

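With limma on log2(FPKM + 1), which shrinks weak genes, 1977 genes were called in all, 805 higher and 1172 lower, against 3998, 1833 and 2165, and of the pathway genes 11 were called higher and 5 lower, against 20 and 10. The log2 fold change of NGFR was 6.22 with total counts, 5.25 on log2(FPKM + 1) and 6.11 on log2(FPKM + 0.1), against 6.39. That of SORT1 was -1.19 with upper-quartile factors, -1.21 with total counts, -0.98 on log2(FPKM + 1) and -1.18 on log2(FPKM + 0.1), against -1.04, so that SORT1 lost its 2-fold call on log2(FPKM + 1). Total counts moved the median of all genes by -0.16, upper-quartile factors by -0.14 and log2(FPKM + 0.1) by -0.15. Relative to the median of its setting, SORT1 was at -1.04, -1.04 and -1.03 in these, against -1.04 in the main fit. On log2(FPKM + 1) it was at -0.89 relative to the median. The cause of the other differences was not tested.

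The labels do not say whether equal replicate numbers mark paired cultures. Same-numbered deviations from the group means correlated at -0.0479, 0.0072 and 0.0055, and different-numbered ones between -0.0551 and 0.0536. With 3 libraries per group this cannot show whether the cultures were paired. With the replicate number as a block, 3978 genes were called (1817 higher and 2161 lower), the pathway genes gave 20 higher and 10 lower, and NGFR and SORT1 were at 6.39 and -1.04. Of 555 values of 35 named genes other than the members under the alternatives, 530 kept direction and call, 24 lost the call and 1 turned direction, SORCS2, which ranged from -0.01 without the third rhCYGB library to 0.54 without the first. The depth limits statements on BDNF and NTF4.
Leaving out 1 library gave 3982 to 4101 called genes, NGFR between 6.29 and 6.49 and SORT1 between -1.09 and -1.01.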
